A study of Mus musculus with 6 samples.

Results

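The genes described here encode heavy chains of class II myosin, the motor proteins of muscle and of contractile actin bundles in other cells. The 9 genes were chosen by symbol: Myh3, Myh8, Myh2, Myh1, Myh4, Myh7, Myh6, Myh9 and Myh10. Every probe set that the platform annotation pairs with exactly 1 of them was used, which gave 18 of the 45101 probe sets on the array, 5 of them for Myh9, 3 for Myh1, 2 each for Myh4, Myh6 and Myh10 and 1 for each other gene. A further 2 probe sets, paired there with both Myh7 and Myh6, were not assigned to either. In all, 18194 genes had a probe set of their own.

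RNA came from C2C12, mouse myoblasts that fuse into myotubes in low serum, and each group was measured on 1 array. Parental cells were taken in growth medium with 10% fetal bovine serum, at day 0, just after the confluent culture was changed to differentiation medium with 2% horse serum, and at day 2 and day 4 in that medium. A pair of stable lines, both transfected with Lipofectamine and kept under G418 (500 µg/ml) for 2 weeks, was taken at day 0: shRp58 cells carried a hairpin against Rp58 (current symbol Zbtb18, a zinc finger repressor of transcription), and control cells carried what the labels call a LacZ vector in 1 field and a control sh in another. The labels do not say whether these lines were pools or single clones. With 1 array per group there is no spread between replicates, so every difference below is a description of 2 arrays, without a test and with a precision set by that number.

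Values are log2 probe set levels as deposited. Each array's median was 8.26 or 8.27 in the time course but 7.15 in both stable lines, so differences were read within each of these sets. A gene was kept when at least 1 array reached 7.95, the median of all values in the table, which left 13242 genes and 7 of the 9 myosin genes. Myh6, whose highest value was 7.94, lay just below that level, Myh2 reached 7.13 at most, and the lowest peak among the 7 that passed was 11.64, for Myh4. Levels were not compared between probe sets, which differ in brightness. The 7 skeletal muscle markers Myod1, Myog, Des, Ckm, Acta1, Chrna1 and Mymk were above 7.95 on every array. Zbtb18, the gene the hairpin targets, read 11.16 in shRp58 cells and 11.69 in control cells, a difference of -0.53 that did not reach 2-fold. Over the time course it read 11.18 in growth medium and 11.88, 12.86 and 13.06 at days 0, 2 and 4. Day 4 thus stood 1.18 above day 0. How much of the -0.53 goes with the hairpin and how much with the state of differentiation was not tested.

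Sarcomeric myosin heavy chains form the thick filament together with light chains, and the isoform sets how fast a fibre shortens. In mouse muscle, the embryonic (Myh3) and perinatal (Myh8) isoforms come before the adult fast ones, which are IIa (Myh2), IIx (Myh1) and IIb (Myh4). Beta (Myh7) is the isoform of slow fibres and fetal heart. Myh6 encodes the alpha isoform of the heart. Myh9 and Myh10 encode nonmuscle myosin IIA and IIB, which pull on actin in dividing, spreading and migrating cells.

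In the RefSeq gene order of GRCm38.p6, Myh3, Myh2, Myh1, Myh4, Myh8 and Myh13 follow each other on chromosome 11 with no other protein-coding gene between them, and Myh6 and Myh7 are neighbours on chromosome 14. RefSeq promoters (GRCm38.p6) were found for all 9 genes, and those of the neighbouring fast and perinatal genes are shown because these genes carry a common stretch of sequence but read differently over the time course. Each line gives the 250 bases before the annotated start, 5′ to 3′, on the plus strand of chr11:67170777-67171026 (Myh2), chr11:67199852-67200101 (Myh1), chr11:67237562-67237811 (Myh4) and chr11:67276874-67277123 (Myh8). The capitals mark a 14-base run that is identical in the 4 genes and, upstream of it, any match to the MEF2 site, which is bound by the Mef2 factors of muscle.
Myh2: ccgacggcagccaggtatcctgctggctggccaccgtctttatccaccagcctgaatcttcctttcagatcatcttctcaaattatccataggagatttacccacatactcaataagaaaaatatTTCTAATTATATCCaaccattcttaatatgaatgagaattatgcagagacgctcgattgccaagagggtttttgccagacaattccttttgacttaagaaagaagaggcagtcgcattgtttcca
Myh1: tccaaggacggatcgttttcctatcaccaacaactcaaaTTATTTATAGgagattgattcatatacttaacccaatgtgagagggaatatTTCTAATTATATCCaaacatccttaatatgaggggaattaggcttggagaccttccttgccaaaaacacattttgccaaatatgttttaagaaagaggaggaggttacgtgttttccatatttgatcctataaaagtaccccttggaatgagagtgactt
Myh4: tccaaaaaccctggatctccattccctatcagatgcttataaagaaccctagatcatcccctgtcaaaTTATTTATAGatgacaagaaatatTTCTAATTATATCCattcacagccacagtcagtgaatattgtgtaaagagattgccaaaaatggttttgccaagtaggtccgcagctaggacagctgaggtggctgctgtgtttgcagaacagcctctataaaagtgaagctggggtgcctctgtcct
Myh8: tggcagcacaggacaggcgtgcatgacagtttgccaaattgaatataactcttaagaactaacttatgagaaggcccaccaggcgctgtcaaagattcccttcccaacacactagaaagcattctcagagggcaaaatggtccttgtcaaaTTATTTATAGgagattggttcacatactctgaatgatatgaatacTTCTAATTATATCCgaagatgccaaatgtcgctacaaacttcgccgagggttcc
The run TTCTAATTATATCC was found in these 4 promoters and in no other of 32851 promoters searched, on either strand. The MEF2 match TTATTTATAG lay upstream of it in Myh1, Myh4 and Myh8, with its first base at -211, -182 and -99 counted from the start, and 2.92% of all promoters hold a MEF2 match. In Myh2 the letters of that match were not in the window.

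The promoter of Myh3, the gene with the largest difference at day 0, holds neither the run nor a MEF2 match, and is shown from chr11:67078050-67078299 on the plus strand with its E-box (CANNTG, the core that the MyoD family binds) and its TATA box (TATAAA) in capitals.
Myh3: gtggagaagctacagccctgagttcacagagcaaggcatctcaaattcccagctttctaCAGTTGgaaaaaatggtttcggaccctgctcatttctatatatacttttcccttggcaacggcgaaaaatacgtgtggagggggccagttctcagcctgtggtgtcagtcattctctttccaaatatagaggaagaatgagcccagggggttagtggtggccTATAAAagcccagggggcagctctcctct
A TATA box was read on the given strand and all other motifs on both. E-boxes are common, being in 66.2% of promoters, and none of the 14-base run, MEF2 or TATA matches overlaps one here. The first base of TATAAA stood at -29 in Myh3, at -32 in Myh1 and at -31 and -213 in Myh4, and 7.59% of all promoters hold at least 1 such match. A CArG box, the site of serum response factor, was matched in Myh4 alone of the 9 genes (1.47% of promoters), and the TEAD motif CATTCC in Myh1, Myh4, Myh7, Myh6 and Myh10 (12.6%). The letters ACATCTG, the core of the site known for Zbtb18, which contains an E-box, were in no window of the 9 genes and in 3.71% of promoters.

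**Figure D1:**
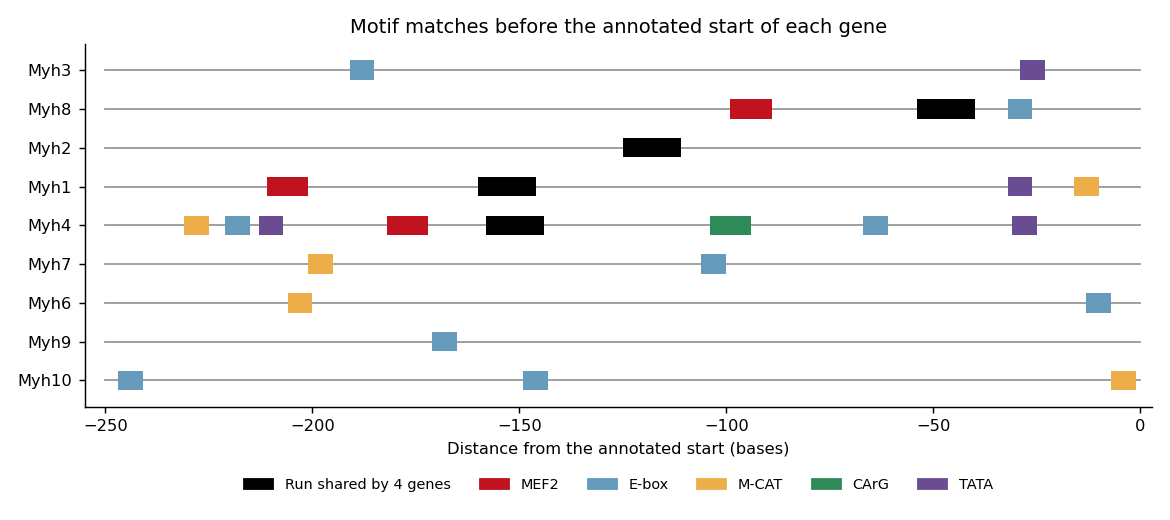
Motif matches in the 250 bases before the annotated start of each gene, plotted by distance from the start in bases (for Myh7, 1 of its 2 annotated starts). Black boxes are the 14-base run of Myh8, Myh2, Myh1 and Myh4, and red boxes are MEF2 matches, seen in Myh8, Myh1 and Myh4.

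Over the time course 5 sarcomeric isoforms became higher, embryonic Myh3, slow Myh7 and the readings assigned to Myh1 by day 0, and perinatal Myh8 and fast IIb Myh4 by day 2. By the probe set that stands for each gene, the one with the highest mean, 3 of the 9 genes (Myh3, Myh1 and Myh7) exceeded their growth medium value at least 2-fold at day 0, where 2.91% of all kept genes were, and none was 2-fold lower (background 0.317%). At day 2, 5 of 9 were at least 2-fold higher than at day 0 (background 2.67%), with Myh8 and Myh4 added, and 0 lower (background 2.96%), and the same 5 were higher at day 4 than day 0 (background 3.83%). Between day 4 and day 2, 3 genes (Myh8, Myh4 and Myh7) were still 2-fold apart, all of them higher, against 0.808% of kept genes. The only gene at least 2-fold lower in any of these steps was nonmuscle Myh10, at day 4 against day 0 (background 5.66%).

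**Figure D2:**
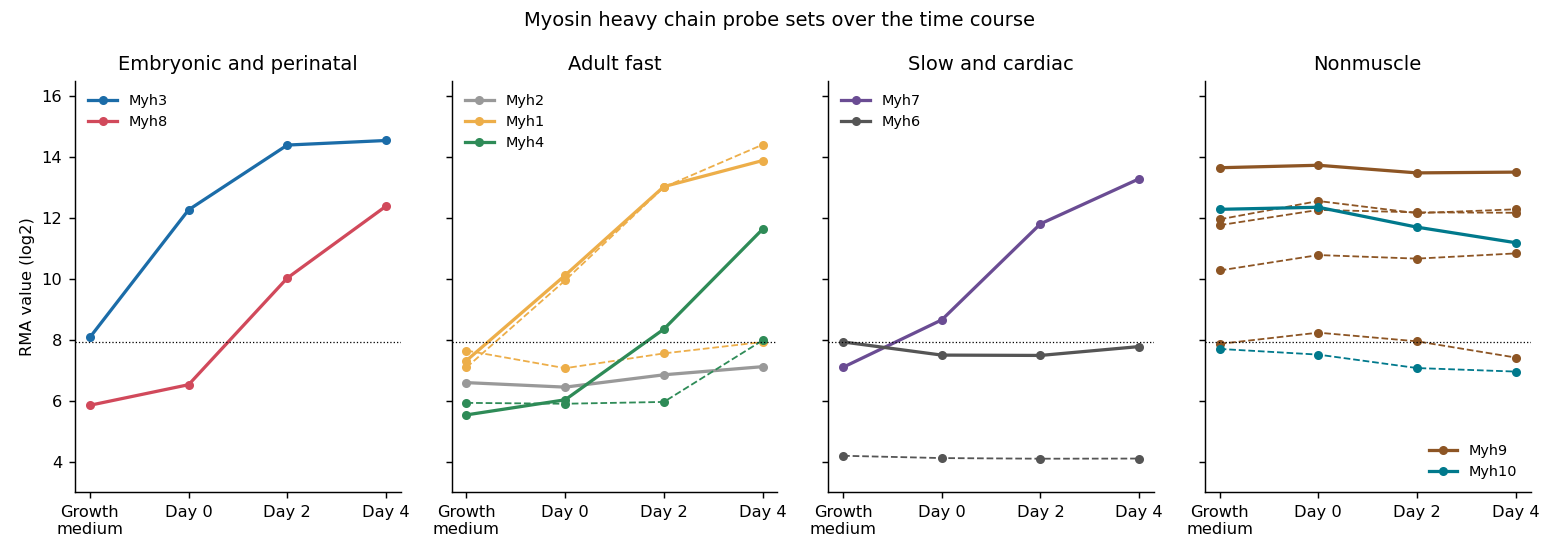
Deposited log2 values of the 18 probe sets over the 4 time-course arrays, in panels by type of isoform. Solid lines are the probe sets that stand for a gene, dashed lines are other probe sets of the same gene, and the dotted line marks 7.95; Myh3 is near its day 4 value by day 2, while Myh4 gains 3.28 between those days.

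Myh3, the embryonic chain, read 8.09 in growth medium and 12.27, 14.40 and 14.55 at days 0, 2 and 4. Its difference of 4.19 at day 0 against growth medium, 18.2-fold, was the largest of all 13242 kept genes. Day 4 stood only 0.15 above day 2, and both values lay close to the highest values on those arrays, 15.06 at day 2 and 15.09 at day 4.

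Myh8, the perinatal chain, read 5.86 in growth medium and 6.53, 10.03 and 12.39 at days 0, 2 and 4. This probe set was below 7.95 until day 2, so the size of its early differences is not exact. Its 5.86 of day 4 over day 0, 58.0-fold, was the largest difference of that comparison. The day 2 and day 4 arrays were thus high and the earlier pair low.

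Slow Myh7 read 7.11 in growth medium and 8.66, 11.81 and 13.29 at days 0, 2 and 4. Each step up was at least 2-fold, at 1.56, 3.15 and 1.48, as for 13 of 13242 kept genes (0.0982%). The other 12 named genes of that kind include Mef2c, the muscle transcription factor, Ckm, the creatine kinase of muscle, and Atp2a1, the calcium pump of fast fibres. Among the 9 myosin genes Myh7 was the only one by the probe sets that stand for the genes. Of the other probe sets, 1427868_x_at of Myh1 also passed 2-fold at each step, at 2.86, 3.06 and 1.39.

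The adult fast genes differed from each other. Myh4 (IIb) read 5.54 in growth medium and 6.04, 8.36 and 11.64 at days 0, 2 and 4 by its brighter probe set. Its second probe set, 1458368_at, read 5.94, 5.91, 5.97 and 7.99 at the same times, so both were highest at day 4 but only the brighter one was already higher at day 2. Between day 4 and day 2 the brighter probe set differed by 3.28, 9.70-fold, and only 1 kept gene had a larger difference.

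Myh1 (IIx) was read by 3 probe sets that do not tell the same story. Probe set 1427520_a_at read 7.33 in growth medium and 10.13, 13.04 and 13.89 at days 0, 2 and 4, and 1427868_x_at read 7.10, 9.96, 13.02 and 14.41 at the same times. By contrast 1452465_at read 7.65, 7.08, 7.56 and 7.93 and never reached 2-fold between steps, although the annotation gives it the same source sequence accession as 1427520_a_at. In the maker's naming _x_at marks a set with probes that also match other sequences and _a_at one that reads several transcripts of a gene. The fast and developmental heavy chain genes are closely related in sequence, so the part of Myh1 in the 2 bright readings is uncertain.

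Myh2 (IIa) was read by 1 probe set, at 6.60 in growth medium and 6.45, 6.86 and 7.13 at days 0, 2 and 4. It stayed below 7.95 on all 6 arrays and day 4 stood 0.67 above day 0, short of 2-fold. Cardiac Myh6 likewise stayed below that level, with its brighter probe set at 7.94, 7.51, 7.50 and 7.79 at the same times and its dimmer one between 4.11 and 4.20. The cardiac markers Nppa, Nppb, Tnni3, Nkx2-5, Gata4, Tbx5 and Myl7 gave 0 of 7 genes 2-fold apart between consecutive times. The same held at day 4 against day 0 (background 3.83% higher and 5.66% lower) and in shRp58 cells (0.619% lower). Tnni3 read 6.51 in growth medium and 7.28, 8.22 and 7.71 at days 0, 2 and 4. Its values at days 2 and 4 were thus more than 2-fold above growth medium, though only day 2 passed 7.95. Myl7 did not pass the filter.

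The pace of the 5 isoforms can be set on a common scale as the share of each gene's own log2 difference between day 4 and growth medium that was reached at each time. Myh3 had reached 64.8% by day 0 and 97.7% by day 2. Myh1 had reached 42.7% and 87.0% by 1427520_a_at and 39.1% and 80.9% by 1427868_x_at. Myh7 had reached 25.2% and 76.1%, Myh8 10.3% and 63.9%, and Myh4 8.13% and 46.2%. The second Myh4 probe set had reached 1.51% by day 2. Over the 1071 kept genes whose day 4 value exceeded growth medium 2-fold or more, the median was 45.2% by day 0 (middle 50% of genes from 23.4% to 60.7%) and 85.3% by day 2 (69.8% to 98.0%), so by day 0 Myh3 lay above, Myh7 and Myh1 within, and Myh8 and Myh4 below that middle range. The total differences behind these shares ran from 6.09 for Myh4 to 6.56 for Myh1 by the probe sets that stand for the genes. Neither totals nor shares are exact, since Myh8, Myh4, Myh7 and Myh1 read below 7.95 in growth medium and Myh3 lay near the top of the scale at day 4. The order of the shares was kept after centring and after quantile normalization, with changes of at most 1.34 percentage points for these 5 probe sets, while the second Myh4 probe set had reached 4.28% by day 2 after quantile normalization. Neighbours in the order, such as Myh8 and Myh4 at day 0, cannot be ranked without replicates.

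**Figure D3:**
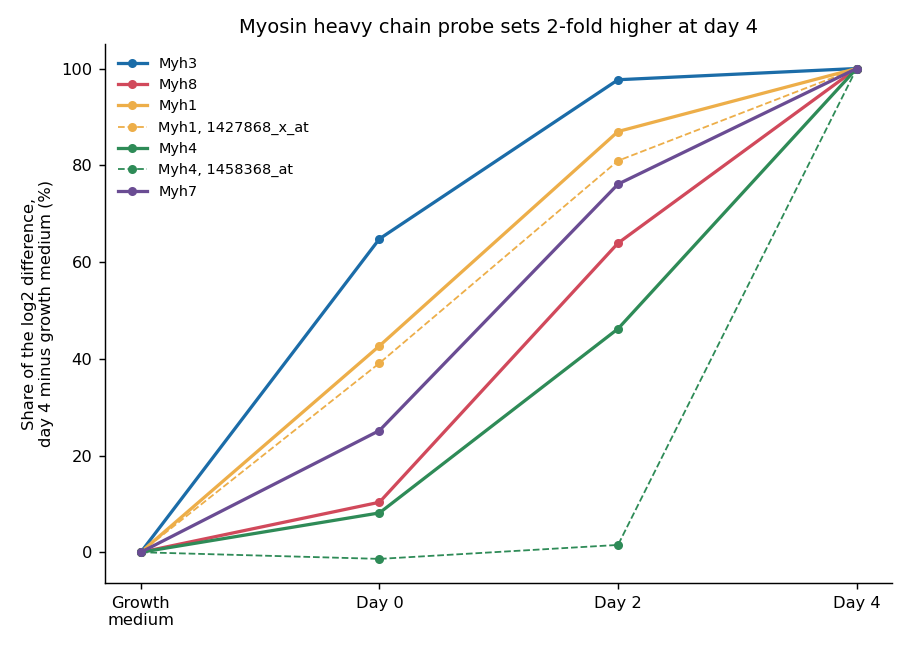
Share of the log2 difference between day 4 and growth medium reached at each time (percent) for the 7 probe sets at least 2-fold higher at day 4, with solid lines for the probe sets that stand for a gene and dashed lines for the others. By day 2 the shares run from 97.7% for Myh3 to 46.2% for Myh4 among the solid lines.

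Of the nonmuscle genes Myh10 was at least 2-fold lower at day 4 than day 0 and Myh9 was not 2-fold apart at any step. The 5 probe sets of Myh9 differed between day 4 and day 0 by -0.82 to 0.05, with the brightest at 13.65 in growth medium and 13.74, 13.49 and 13.51 at days 0, 2 and 4. Myh10 read 12.29 in growth medium and 12.36, 11.71 and 11.19 at days 0, 2 and 4 by its brighter probe set. That made day 4 lower than day 0 by -1.16, 2.24-fold, with the lowest value at the last time. Its dimmer probe set, below 7.95 on all arrays, gave -0.56, which did not reach 2-fold. Of 5 other class II heavy chains listed, 3 had a probe set of their own, and smooth muscle Myh11 did not pass the filter. Myh14, the third nonmuscle chain, differed by 0.15 between day 4 and day 0. Myh7b, a slow type chain that resembles Myh7, was past 2-fold at 1.05, which made 1 of the 2 kept genes (background 3.83%). Myh7b read 7.09 at day 0 and 8.15 at day 4, and passed 7.95 on the day 4 array alone, so this size is not exact.

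The stable lines ask whether the isoforms differed at day 0 between cells with the Rp58 hairpin and control cells. The same 5 sarcomeric isoforms that were higher during differentiation were lower in shRp58 cells by 2-fold or more, 5 of 9 genes, where 0.619% of kept genes were. None of the 9 was 2-fold higher (background 0.0529%). Of all 13242 kept genes, 0.581% were both at least 2-fold higher at day 4 than day 0 and at least 2-fold lower in shRp58 cells, which share no array.

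Myh8 read 5.40 in shRp58 cells and 7.53 in control cells, a difference of -2.12, 4.36-fold and the lowest of all kept genes. Myh7 read 8.12 in shRp58 cells and 10.12 in control cells, a difference of -2.00 and the next lowest. Myh4 read 5.26 in shRp58 cells and 7.03 in control cells, a difference of -1.76, and its second probe set gave -0.44. Each was thus lower in shRp58 cells by every probe set assigned to it. Both Myh8 and Myh4 were below 7.95 on both arrays, so their sizes are not exact.

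Myh1 read 9.88 in shRp58 cells and 11.50 in control cells by 1427520_a_at, a difference of -1.62, and 1427868_x_at gave -1.91. Probe set 1452465_at, flat over the time course, differed by 0.15. Myh3 read 11.79 in shRp58 cells and 13.09 in control cells, a difference of -1.30, the smallest of the 5 isoforms past 2-fold. The nonmuscle chains were close: the 5 probe sets of Myh9 gave -0.45 to -0.12, and Myh10 stood at 11.38 in shRp58 cells and 11.14 in control cells, a difference of 0.24. Myh2 differed by -0.11 and Myh6 by 0.11, both below 7.95 on both arrays.

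Some markers of differentiated muscle were also lower. Of the 7 skeletal muscle markers, 2 were past 2-fold in shRp58 cells (background 0.619%), Ckm by -1.27 and the fusion protein gene Mymk by -1.04, and the list's median was -0.72 against -0.01 for all kept genes. The other 5 ran from -0.76 for Acta1 to -0.13 for Myod1. Their part in the myosin differences was not tested. In RNA from a whole culture, fewer differentiated cells and less RNA per cell cannot be told apart.

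**Figure D4:**
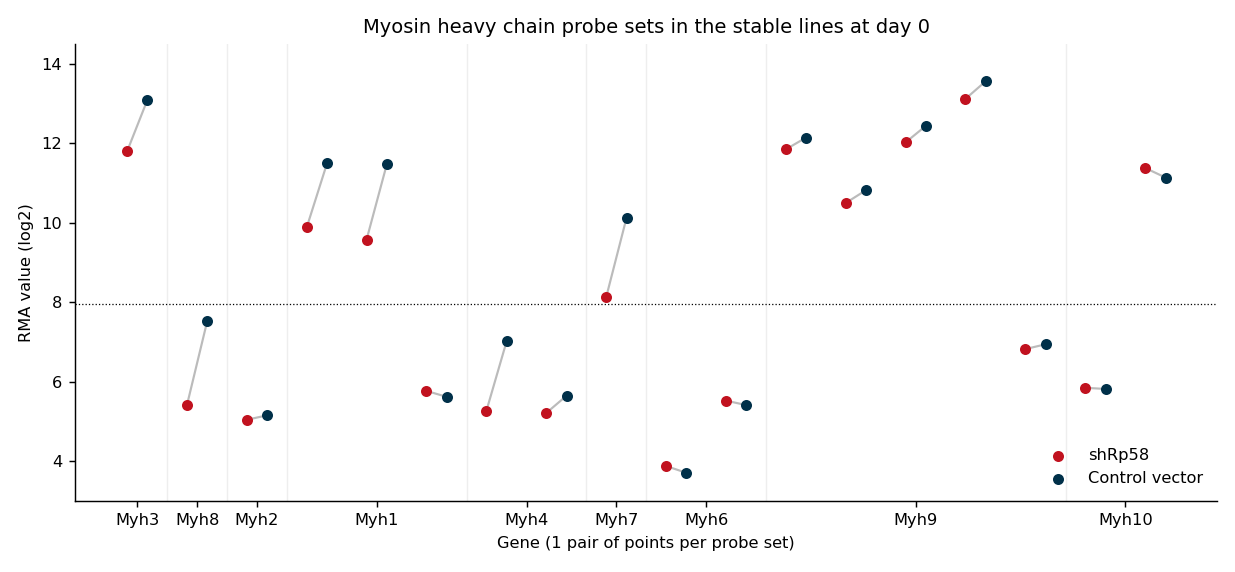
Deposited log2 values of the 18 probe sets in shRp58 cells (red, left of each pair) and control cells (dark blue, right), both at day 0; the dotted line marks 7.95. The steepest pairs belong to Myh8 (5.40 and 7.53) and Myh7 (8.12 and 10.12), and the pairs of Myh9 and Myh10 are nearly level.

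**Figure D5:**
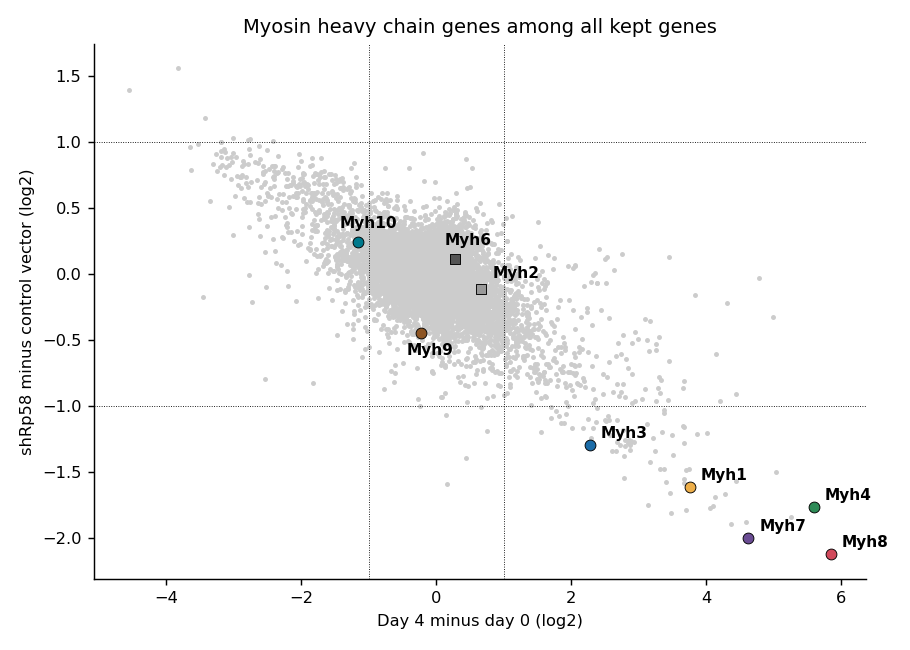
Difference of day 4 minus day 0 (horizontal, log2) against shRp58 minus control vector (vertical, log2) for 13242 kept genes in grey and the 9 myosin genes in colour; squares mark Myh2 and Myh6, which did not pass the filter, and dotted lines mark 2-fold. Myh8 lies furthest to the lower right, at 5.86 and -2.12, and Myh9 and Myh10 lie outside that corner.

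Set beside parental cells at day 0, the control line was at least 2-fold higher in the 5 isoforms by the probe sets that stand for them. The shRp58 line was not. This comparison crosses the sets of arrays and was made after centring each array on its median. Control cells stood above parental day 0 cells by 2.11 for Myh8, 2.58 for Myh7, 2.49 for Myh1, 2.10 for Myh4 and 1.94 for Myh3. The background was 2.07% of kept genes past 2-fold upwards and 1.13% downwards. Of the other probe sets, 1427868_x_at of Myh1 gave 2.64, but 1452465_at of Myh1 gave -0.34 and the second of Myh4 gave 0.85. The differences of shRp58 cells from parental day 0 cells were -0.02 for Myh8, 0.57 for Myh7, 0.87 for Myh1, 0.34 for Myh4 and 0.63 for Myh3, none of them 2-fold (background 0.491% higher and 0.74% lower). Against parental day 2 cells the control line differed by -1.38 for Myh8 and by -0.56 to -0.18 for the other 4, so by these probe sets its readings lay between those of parental day 0 and day 2, whereas the second Myh4 probe set stood 0.81 above parental day 2. Nonmuscle Myh9 also stood above parental day 0 in control cells, by 0.95 with its brightest probe set and by 1.15 and 1.29 with 2 others. Its remaining probe sets gave 0.70 and -0.18. Cardiac Myh6, below 7.95 on all arrays, stood at -0.98 by its brighter probe set and at 0.69 by its dimmer one. After quantile normalization of the 6 arrays together, control cells stood 1.58 (Myh3) to 2.45 (Myh7) above parental day 0 cells in the 5 isoforms. The background was 1.59% higher and 1.17% lower. In shRp58 cells these isoforms stood 0.03 (Myh8) to 0.82 (Myh1) above parental day 0 (0.393% and 0.604%). For Myh9 in control cells the brightest probe set then gave 0.45, and the same 2 others gave 1.02 and 1.01. Transfection, selection, the culture and the set of arrays all differ between these lines and the parental cells and cannot be told apart.

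Partners of the heavy chains were read from lists. Of 10 listed thick filament proteins 9 were measured and kept, and 8 of these were at least 2-fold higher at day 4 than day 0 (background 3.83%) and 0 lower, with a median of 2.78 against -0.04 for all kept genes. The largest was Myom1 (3.99), a cross-linker of the filament's midline, followed by Mybpc2 (3.45), the fast myosin binding protein C, while its cardiac relative Mybpc3 differed by 0.44. In shRp58 cells 5 of the 9 were lower by 2-fold or more (background 0.619%, median -1.11). These were Mybph at -1.38, Myom2 at -1.27, the giant scaffold Ttn at -1.20, Myom3 at -1.11 and Myom1, the lowest of the list.

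Of 6 sarcomeric light chains 5 were kept, and 4 were at least 2-fold higher at day 4 than day 0 (background 3.83%). Myl2, the slow and ventricular regulatory chain, stood 5.26 higher, Myl4, the embryonic and atrial essential chain, 3.49, Mylpf, the fast regulatory chain, 1.42 and Myl1, the fast essential chain, 1.08. Myl3, the slow essential chain, differed by 0.10. In shRp58 cells Myl2 stood at -1.84 and Myl4 at -1.81, past 2-fold (background 0.619%), against -0.82 for Mylpf and -0.63 for Myl1. These sizes are not exact. At day 4 Mylpf, Myl1 and Myl4 read 14.93, 14.92 and 14.81, close to that array's highest value, 15.09. In control cells Mylpf and Myl1 read 13.88 and 13.94, where the highest value was 14.54. Myl2 read below 7.95 at day 0 (7.09) and in shRp58 cells (6.17). None of the 5 nonmuscle and smooth light chains was 2-fold apart at day 4 against day 0 (median -0.24, background 3.83% higher and 5.66% lower). None was in shRp58 cells either (median -0.26). At day 0 against growth medium 1 of the 5, Myl12b, was past 2-fold at 1.18 (background 2.91%).

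Genes that fold myosin split in the same way. Unc45b, the muscle chaperone of the myosin head, stood 3.38 higher at day 4 than day 0 and Smyd1, a muscle methyltransferase that binds myosin, 1.88 higher. In shRp58 cells they stood at -1.48 and -0.70. Unc45a, the general form of the chaperone, differed by -0.89 and 0.12 in these comparisons, and the broadly expressed chaperones Hsp90aa1 and Hspa8 by -0.11 and -0.02 at day 4 against day 0. Of the 6 listed genes, 2 of 5 measured were thus 2-fold higher at day 4 (background 3.83%) and 1 was 2-fold lower in shRp58 cells (background 0.619%).

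Most listed genes of both fibre types were higher at day 4. At day 4 against day 0, 7 of 9 slow fibre genes (median 2.60) and 9 of 10 fast fibre genes (median 2.68) were at least 2-fold higher (background 3.83%) and 0 lower, and in shRp58 cells 6 of 9 slow genes (median -1.28) and 4 of 10 fast genes (median -0.87) were at least 2-fold lower (background 0.619%). Among the fast genes Pvalb, a calcium buffer of IIb fibres, stood 3.16 higher at day 4 than day 0, with 1.79 of that after day 2. Of the slow genes Atp2a2, the calcium pump of slow fibres and of nonmuscle cells, differed by -0.60. The difference between the lists was not tested.

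Of 20 listed regulators of isoform choice 18 were kept, and 4 were at least 2-fold higher at day 4 than day 0 (background 3.83%): Mef2c (3.67), Tbx15 (2.04), a T-box factor of fast fibres, Myog (1.14) and Tead4 (1.01). Sox6, a repressor of slow genes, differed by 0.37, and Prox1, which favours slow genes, by 0.44, while the calcineurin target Nfatc1 stood at -0.36. Prox1 read below 7.95 at day 0 (7.15) and day 4 (7.60), and Sox6 at day 0 (7.63), so the sizes for Prox1 and Sox6 are not exact. In shRp58 cells Mef2c alone of the 18 was past 2-fold, at -1.16 (background 0.619%). Of 11 partners of the nonmuscle chains 10 were kept, and 1, the actin cross-linker Flna, was at least 2-fold lower at day 4 than day 0 (-1.16, background 5.66%), where Myh10 gave the same difference. None of them was 2-fold apart in shRp58 cells.

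Genes most like 4 of the isoforms were sought among 2359 kept genes with at least a 2-fold range over the 4 time-course arrays, by the root mean square of the log2 differences after centring each gene on its mean over those arrays, with the other heavy chain genes left out. For Myh7 the closest was Ablim3, an actin-binding protein (0.10), then the fatty acid transporter Cd36 (0.20), the thin filament protein Lmod2 (0.35), Itgb1bp2 (0.39) and Csrp3 (0.40). For Myh3 they were nebulin, Neb (0.20), the fusion peptide gene Mymx (0.29), Klhl41 (0.33), the fast troponin Tnni2 (0.34) and Mybph (0.35). For Myh8 they were Cd36 (0.34), Ablim3 (0.55), Myl2 (0.60), Dhrs7c (0.65) and Csrp3 (0.69). For Myh4 they were Hectd2os (0.35), Tceal7 (0.41), Cilp (0.56), Ctxn3 (0.63) and Cav3 (0.66). Likeness over 4 arrays is a description only, and no gene came as close to Myh3, Myh8 or Myh4 as Ablim3 did to Myh7.

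The stable lines, which the likeness did not use, showed where such genes parted. In shRp58 cells all 5 genes found for each of Myh3, Myh7 and Myh8 were at least 2-fold lower than in control cells, from -1.89 (Ablim3) to -1.13 (Klhl41), where 0.619% of all kept genes were and 77 of the 507 genes 2-fold higher at day 4 than day 0. The genes found for Myh7 and Myh8 overlap, and Cd36 read below 7.95 on both stable-line arrays. Of the 5 found for Myh4, only Tceal7 (-1.57) and Cav3 (-1.21) were, while Ctxn3 stood at -0.96, Hectd2os at -0.32 and Cilp, a matrix protein, at -0.03. Ctxn3, Hectd2os and Cilp read below that level on both arrays too, as did Myh4 itself at -1.76.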

How the data were processed

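RNA from 6 C2C12 samples, 1 per group, was hybridised as 10 ug of cRNA to Affymetrix mouse arrays, and the deposited values are log2 intensities that the authors computed by RMA, per the series' design text. Software was not given in the sources used, nor was whether arrays were normalized together. Groups were taken from the sample titles. Of 45101 probe sets, 34958 had 1 gene in the platform annotation, 932 several and 9211 none, and only the first kind was named. Entrez IDs matched the RefSeq table for 34754. Each gene was represented by its brightest probe set on average. Genes had to reach 7.95 on some array, which left 13242 of 18194 genes. Differences are of log2 values between 2 arrays, counted at 2-fold; counting was tested on simulated data. No detection calls were used. Named genes are the 9 myosin genes, list members, Zbtb18 and, for Myh3, Myh8, Myh4 and Myh7, the 5 genes of most similar course. The genes, lists and rules were chosen with earlier results of these data known. Alternatives were other probe set choices, filters, scalings and thresholds. Python 3.11.15, pandas 2.3.3 and statsmodels 0.14.6 (loess span 0.4) were used.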

Additional observations from a re-analysis of the deposited data

Results flagged for a closer look

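The 2 probe sets that the annotation pairs with both Myh7 and Myh6 lie outside the comparisons above and carried a signal above day 0. Probe set 1448554_s_at read 6.61 in growth medium and 7.79, 10.73 and 12.31 at days 0, 2 and 4, so day 4 stood 4.53 above day 0, and it read 6.82 in shRp58 cells and 8.74 in control cells, a difference of -1.91. Probe set 1448827_s_at read 5.01 in growth medium and 5.35, 5.52 and 7.69 at days 0, 2 and 4, so day 4 stood 2.34 above day 0 and 2.17 above day 2, all below 7.95. How much of either comes from each gene was not tested.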

How the results depend on the processing

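No paired analysis was possible because each group has 1 array. Under other probe set choices, filters, scalings and thresholds, 45 of 46 recounts of the myosin genes past a threshold stayed within 1.5 times the count given. The exception was a 4-fold threshold for shRp58 cells, which left 1 gene, Myh8, with Myh7 at 3.996-fold. A range of 1.5 times still allows a gene to be lost. Preferring a plain _at name took Myh1 below the filter and out of every count. The genes past 2-fold then fell from 3 to 2 at day 0 against growth medium. They fell from 5 to 4 at day 2 against day 0, and from 5 to 4 in shRp58 cells. Recounts over all kept genes, with higher and lower genes added together, stayed within 1.5 times in all 36 cases. By direction this did not always hold. The 42 genes lower at day 0 than in growth medium became 71 after quantile normalization within each set and 24 under the stricter filter. Of 234 recomputed differences of single genes 221 stayed within the robust standard deviation of all genes, and 11 moved further, all under other probe set choices for Myh1 or Myh4. The remaining 2 changed sign: read by 1452465_at, Myh1 gave -0.58 at day 0 against growth medium and 0.15 in shRp58 cells against control cells. Many of the 221 could not move. Myh3, Myh8, Myh2 and Myh7 have 1 probe set each, so other probe set choices returned the same value. Preferring a plain _at name also returned the same probe set for Myh4, Myh6, Myh9 and Myh10. Centring changed little, because the array medians within each set were nearly equal. The recounts under these settings share this limit. The mean over probe sets took Myh10 below 2-fold at day 4. Dim signal limits Myh8 and Myh4 before day 2 and in both stable lines, and Myh2 and Myh6 on all arrays, while Myh3 lay near the top of the scale at day 2 and day 4.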

Other observations

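Of 13 kept genes at least 2-fold higher at each of the 3 steps from growth medium to day 4, 12 are not myosin heavy chains: Ablim3, Arpp21, Atp2a1, Cavin4, Cd36, Ckm, Gm38403, Lmod3, Mef2c, Pgam2, Tceal7 and Tmem182. They are listed because they passed this count, after their values were seen. Several of them belong to muscle by known role, such as Lmod3, which builds thin filaments, and Pgam2, the muscle form of a glycolytic enzyme. Myo18a, a myosin with no motor activity of its own, stood 0.76 higher at day 0 than in growth medium and 0.60 higher at day 4 than at day 0, unlike most other partners of the nonmuscle chains, whose median at day 4 against day 0 was -0.33.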
